A study of Mus musculus with 36 samples.

Results

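Gem, Rem1, Rem2 and Rrad are the 4 genes of the RGK group of small GTPases, and they were followed here through the stimulation of mouse cortical neurons with BDNF or KCl. They were chosen by name, and all 4 have a row among the 26709 genes of the RNA table. Cortical neurons of CD-1 mice came from embryos of embryonic day 15, whose tissue was combined before plating, and were used after 7 days in vitro. Every culture, the controls too, was silenced with AP-5 (100 µM), which blocks NMDA receptors, together with TTX (1 µM), which blocks voltage-gated sodium channels. After 2 h of silencing, neurons received BDNF at 10 ng/ml, a secreted growth factor that signals through the TrkB receptor, or KCl at 55 mM, which depolarises the membrane. They were collected at 1, 6 or 10 h, and control neurons remained in AP-5 and TTX for 3, 8 or 12 h in all. RNA-seq measured transcript levels and ATAC-seq, in which a transposase cuts accessible DNA, measured chromatin accessibility, each in 18 libraries, 2 in each of 9 groups, called A and B below.

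RGK proteins are unusual members of the Ras superfamily. They bind the beta subunits of high-voltage-activated calcium channels and reduce the calcium current that passes through these channels, and they also act on the cytoskeleton. Gem was found as a gene induced in activated lymphocytes, Rrad (the Rad protein) is best known from heart and muscle, Rem1 is likewise a gene of heart and muscle, and Rem2 is the member expressed most widely in brain, where its transcript follows neuronal activity and its protein restrains dendritic branching. KCl opens the very channels that these proteins restrain, whereas BDNF acts first through a receptor tyrosine kinase.

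A promoter and a distal peak are shown here as sequences. The Rem2 promoter lies inside an open peak that was not called in any comparison while the transcript changed, and the other sequence is the centre of the peak near Rrad that was called more open under BDNF at 1 h, a call that other settings did not keep. Of the 4 members, 2 (Rem1 and Rem2) have an entry in the RefSeq promoter table for GRCm38.p6, and the Rem2 sequence is from it. It covers the 250 bases before the annotated start at chr14:54475850-54476099 on the plus strand. The peak sequence is the 300 bases around the peak's centre, chr8:104602752-104603051 of the same build, plus strand, in an intron of Cdh16. The protein-coding start nearest to this peak is that of Pdp2, and no result here ties the peak to Rrad. Capitals mark CG dinucleotides.
Rem2 promoter: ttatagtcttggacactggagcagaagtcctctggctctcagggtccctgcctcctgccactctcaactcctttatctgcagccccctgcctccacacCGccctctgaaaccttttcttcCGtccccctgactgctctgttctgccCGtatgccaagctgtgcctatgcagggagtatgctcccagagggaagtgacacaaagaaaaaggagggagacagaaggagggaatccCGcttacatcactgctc
Cdh16 intron peak: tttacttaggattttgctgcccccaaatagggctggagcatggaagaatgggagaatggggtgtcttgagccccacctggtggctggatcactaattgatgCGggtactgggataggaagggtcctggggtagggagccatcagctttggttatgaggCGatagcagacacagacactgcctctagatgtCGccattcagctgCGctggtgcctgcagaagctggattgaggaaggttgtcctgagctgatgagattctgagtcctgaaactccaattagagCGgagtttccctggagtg

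The Rem2 promoter held 4 CG dinucleotides in 250 bases, a ratio of observed to expected CG of 0.214 against a median of 0.374 over 32841 promoters. The Rem1 promoter of the same length held 19, a ratio of 0.648, and its GC content of 69.2% was higher than that of 89.6% of promoters (Rem2 55.6%, above 60.1% of promoters). The 300 bases of the Cdh16 intron peak had a GC content of 53.0% and held 5 CG dinucleotides, a ratio of 0.253 against a median of 0.286 over 58169 peak centres. Motifs of factors regulated by neuronal activity were searched on both strands, and none had a match in either promoter or in the peak window. The full CREB site, TGACGTCA, stood in 1.55% of all promoters of this length and in 0.985% of peak centres. Its shorter form TGACG, which is contained in it, stood in 17.8% and 16.5%. The AP-1 site TGANTCA stood in 6.75% and 16.4%. The EGR site GCGTGGGCG stood in 0.536% and 0.43%. The CArG box of serum response factor stood in 1.47% and 1.43%, and the MEF2 site in 2.92% and 4.6%.

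The RNA values are gene read counts divided by a size factor of each library, called normalised values here. RNA libraries held 8.51 to 36.7 M reads (M for mega) and ATAC libraries 1.24 to 6.24 M reads in peaks, and no 2 columns were identical. The cultures carried transcripts of excitatory, inhibitory and general neuronal marker genes (summed values of 3336 to 5576, 8995 to 13696 and 34133 to 44306 over the 18 libraries), and also those of astrocytes (7733 to 13948), of the oligodendrocyte lineage (4280 to 7191) and of proliferating progenitors (4943 to 8906). Microglia (56.7 to 121), endothelial and mural (388 to 1429) and muscle markers (140 to 272) were low. In bulk samples, fewer cells of a type and less RNA per cell cannot be told apart. No gene was called in controls of 6 or 10 h against those of 1 h. This held for limma (164 and 181 genes with an unadjusted p below 0.05), edgeR (233 and 197) and DESeq2 (56 and 39). With 2 libraries at each time, these tests cannot show that the control times were equal. Pooling of the controls followed the paper, which compared each stimulated group with all its control samples. The 6 controls served together as the reference of every stimulated group, and these comparisons therefore share their controls.

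Rem2 was the most abundant member in controls, Gem came next, Rrad was low and Rem1 was not detected above the floor of 3 reads. Per kilobase of exon, the mean normalised value of the 6 controls was 49.4 for Rem2, 17.2 for Gem and 2.83 for Rrad. At 1 h of BDNF the order was Rem2 (318 per kilobase), Rrad (266) and Gem (27.0). At 6 h of KCl it was Rem2 (274), Gem (45.6) and Rrad (9.34). Rrad thus passed Gem in level at 1 h of BDNF, and stood below it in all 3 KCl groups (per kilobase 15.9 against 43.8 at 1 h).

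**Figure D1:**
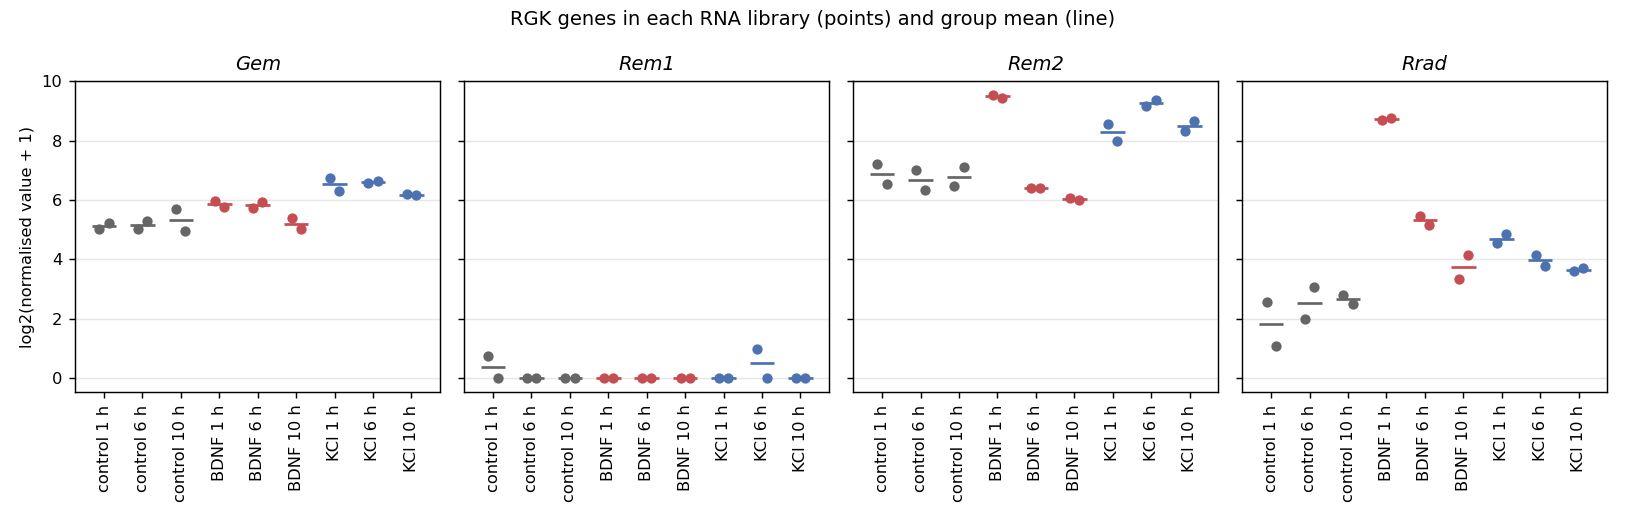
Each point is an RNA library and each line the mean of its group of 2 libraries; the vertical axis is log2(normalised value + 1) and the horizontal axis the 9 groups. Rem2 and Rrad stand highest with BDNF at 1 h (means of 716 and 419 normalised values), Gem stands highest with KCl (92.1 at 1 h and 95.9 at 6 h), and Rem1 had reads in 2 libraries only.

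Rrad (ENSMUSG00000031880, chr8:104628070-104631327 of mm10, minus strand) encodes Rad. Its 6 controls had normalised values between 1.10 and 7.26, with a median of 4.75, from 35 reads in all. BDNF for 1 h gave 411 in library A and 428 in library B. BDNF for 6 h gave 43.2 and 34.8, and BDNF for 10 h gave 9.04 and 16.6. Every BDNF library was above every control, and the values of the 3 times did not overlap. KCl gave 22.2 and 27.8 at 1 h, then 16.7 and 12.7 at 6 h and finally 11.0 and 12.0 at 10 h, again all above the controls. On the log2(value + 1) scale, on which all log2 changes of RNA are given here and which understates the change of a gene this low, Rrad rose by 6.39 ± 0.38 (SE) with BDNF at 1 h (limma with Benjamini-Hochberg adjustment over 16209 genes, adjusted p = 9.37e-12), the 5th largest rise of the genes tested. The rise was 2.99 ± 0.38 at 6 h (rank 33, adjusted p = 1.92e-06) and 1.41 ± 0.38 at 10 h (rank 119, adjusted p = 0.0064), and the last of these was not called without BDNF 10 h replicate B (1.00, adjusted p = 0.178). With KCl the rise was 2.37, 1.64 and 1.32 at the 3 times (limma, adjusted p = 1.90e-05, 0.000703 and 0.0058). An antisense gene, Gm33023, shares 496 bases with Rrad on the plus strand, and since the strand setting of the counting is not given in the sources used here, reads of the pair cannot be told apart. No value of Gm33023 was analysed here.

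Rem2 (ENSMUSG00000022176, chr14:54476100-54480431, plus strand) had controls between 78.8 and 147, with a median of 109. With BDNF at 1 h its libraries had 738 and 694. At 6 h of BDNF they had 83.8 and 83.3, within the range of the controls, and at 10 h 65.6 and 62.8, below all 6 controls. KCl raised both libraries of each time above every control, to 377 and 253 at 1 h, then 578 and 656 at 6 h and finally 317 and 402 at 10 h. It thus followed opposite courses after the first hour, since under BDNF the level was back among or below the controls by 6 h, and under KCl it was then at its highest. The log2 change with BDNF was 2.72 ± 0.21 at 1 h (limma, adjusted p = 1.62e-08, rank 61), -0.37 ± 0.21 at 6 h (adjusted p = 0.18) and -0.74 ± 0.21 at 10 h (adjusted p = 0.011). Rem2 was called lower at 6 h of BDNF by DESeq2 (-0.44, adjusted p = 0.087) and by limma without control 6 h replicate B (-0.46, adjusted p = 0.065). The fall at 10 h was not called without BDNF 10 h replicate B (-0.71, adjusted p = 0.106). The KCl changes were 1.51, 2.50 and 1.71, each ± 0.21 (limma, adjusted p = 1.07e-05, 1.58e-08 and 2.82e-06).

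Gem (ENSMUSG00000028214, chr4:11704457-11714752, plus strand) had controls between 29.7 and 50.5, with a median of 33.8. BDNF gave 60.8 and 52.7 at 1 h, then 51.3 and 59.5 at 6 h, just above the highest control, and finally 40.7 and 31.0 at 10 h, among the controls. KCl gave 106 and 78.1 at 1 h, then 93.4 and 98.4 at 6 h and finally 72.1 and 70.8 at 10 h, all above every control and every BDNF library. The log2 change with BDNF was 0.65 at 1 h and 0.62 at 6 h, each ± 0.19 (limma, adjusted p = 0.011 and 0.015). The call at 1 h was lost without BDNF 1 h replicate A (0.55, adjusted p = 0.158) and that at 6 h without BDNF 6 h replicate B (0.52, adjusted p = 0.172). At 10 h the change was -0.00 (limma, adjusted p = 0.99). With KCl, Gem rose by 1.33, 1.40 and 0.98 (limma, adjusted p = 5.88e-06, 1.87e-06 and 0.000214).

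Rem1 (ENSMUSG00000000359, chr2:152626951-152635198, plus strand) had 3 reads over all 18 libraries, 2 in control 1 h replicate A and 1 in KCl 6 h replicate A. The floor of 3 reads in a library came to a normalised value of 0.985 to 4.56, depending on depth, and covers counting error only. Rem1 was not detectable above this floor in any library and was left out of the test across genes, which took genes with a mean of at least 10. The other 3 members passed this filter. Rrad, whose control mean of 4.47 ± 2.19 (SD, n = 6) is below that minimum, passed it through its stimulated libraries. The counts of members called, and the ranks and adjusted p-values of Rrad, are therefore a description.

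All 3 members tested were called higher with BDNF at 1 h (limma, call at an adjusted p below 0.1), where 21.3% of all genes were called higher and 19% lower. At 6 h of BDNF, Gem and Rrad were called higher and none lower, against 22.1% and 21.1% of all genes. At 10 h Rrad was called higher and Rem2 lower, against 21.1% and 19.5%. With KCl all 3 were called higher at each time, where 26.5% of all genes were called higher and 28.2% lower at 1 h. These shares were 33.4% and 33.1% for 6 h of KCl and 29% and 28.2% for 10 h of KCl. No share over 3 genes can be read against these, so the members are described gene by gene.

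**Figure D2:**
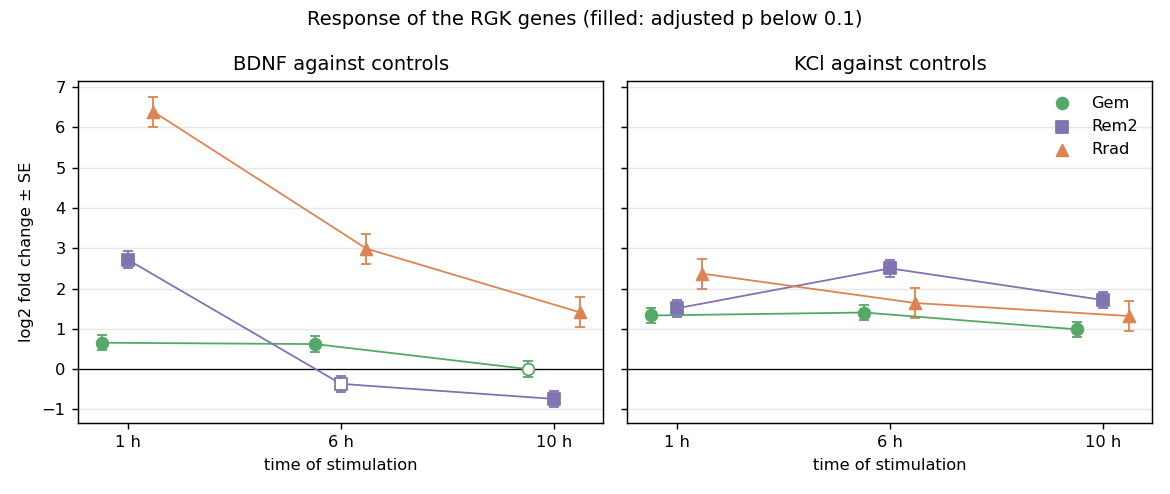
Points give the log2 fold change of Gem, Rem2 and Rrad against the 6 controls with its SE (bars), at 1, 6 and 10 h (horizontal axis), with BDNF on the left and KCl on the right; filled points had an adjusted p below 0.1. Rrad falls from 6.39 at 1 h to 1.41 at 10 h of BDNF, Rem2 goes from 2.72 to -0.74, and under KCl Rem2 peaks at 6 h with 2.50.

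Compared directly at the same time, the stimuli differed for each member in its own way. Rrad was higher with BDNF than with KCl by 4.02 ± 0.46 at 1 h and by 1.35 ± 0.46 at 6 h (limma, adjusted p = 3.99e-07 and 0.018), and the difference at 10 h was 0.09 (adjusted p = 0.89). Without BDNF 6 h replicate A, the difference at 6 h was not called (limma, adjusted p = 0.109). Rem2 was higher with BDNF by 1.21 ± 0.25 at 1 h and lower by -2.87 ± 0.25 at 6 h and -2.46 ± 0.25 at 10 h (limma, adjusted p = 0.0011, 6.62e-08 and 8.67e-07). Gem was lower with BDNF at all 3 times, with log2 differences of -0.68, -0.78 and -0.99, each ± 0.24 (limma, adjusted p = 0.028, 0.0082 and 0.0021). The difference of Gem at 1 h was not called without KCl 1 h replicate A (-0.46, adjusted p = 0.241) or without BDNF 1 h replicate B (-0.57, adjusted p = 0.16). Over all genes, 42.8%, 57.3% and 45% were called between the stimuli at 1, 6 and 10 h, and 3, 3 and 2 of the 3 members tested were among them.

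Time within a stimulus was tested in the same model. From 1 to 6 h of BDNF, Rem2 fell by 3.08 ± 0.25 and Rrad fell by 3.40 ± 0.46 on the log2 scale (limma, adjusted p = 9.47e-08 and 8.32e-06), among 33.6% of genes called in either direction. Ordered from the highest change to the lowest, they were numbers 16197 and 16204 of 16209 genes. Gem had -0.03 there (adjusted p = 0.94). From 6 to 10 h of BDNF 0.216% of genes were called and no member (Rrad -1.58, adjusted p = 0.29). Rrad was called there by edgeR (-1.52, adjusted p = 0.033). From 1 to 6 h of KCl, Rem2 rose by 0.99 ± 0.25 (limma, adjusted p = 0.0032), among 59.6% of genes called, while Gem had 0.07 (adjusted p = 0.82). Rrad had -0.73 there (limma, adjusted p = 0.19) and was called by edgeR (-0.78, adjusted p = 0.065) and by limma without control 1 h replicate B (adjusted p = 0.086). From 6 to 10 h Rem2 fell by 0.79 ± 0.25 (limma, adjusted p = 0.045), among 22.5% called. That call was lost without KCl 6 h replicate B (-0.70) or KCl 10 h replicate A (-0.61).

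In the order of the group means of Rem2, the groups were BDNF 1 h, KCl 6 h, KCl 10 h, KCl 1 h, the controls, BDNF 6 h and BDNF 10 h, with overlap between the libraries of KCl 10 h and KCl 1 h and between the controls and BDNF 6 h. For Rrad the order was BDNF 1 h, BDNF 6 h, KCl 1 h, KCl 6 h, BDNF 10 h, KCl 10 h and the controls, with overlap between KCl 6 h and BDNF 10 h and between BDNF 10 h and KCl 10 h. For Gem it was KCl 6 h, KCl 1 h, KCl 10 h, BDNF 1 h, BDNF 6 h, then the controls with BDNF 10 h among them, with overlap between KCl 6 h and KCl 1 h and between BDNF 1 h and BDNF 6 h.

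Whether members responded differently from each other was tested on the difference of their log2 values in each library, 6 stimulated libraries of a stimulus against the 6 controls (exact permutation test, two-sided, 6 pairs and 2 stimuli, so 12 tests; the smallest p these can give is 0.00216). Under BDNF, the change of Gem minus that of Rrad was -3.17 and of Rem2 minus Rrad -3.06 over the 3 times (exact permutation, adjusted p = 0.0052 for both), so that Rrad rose more than either, with no overlap between stimulated and control libraries. Gem minus Rem2 had -0.11 (exact permutation, adjusted p = 0.89), a mean over times at which Gem was first below and then above Rem2 in change. At 1 h of BDNF Gem had 0.65 and Rem2 2.72, at 6 h 0.62 and -0.37, and at 10 h -0.00 and -0.74, and the difference at single times was not tested. Under KCl, Gem minus Rem2 had -0.67 (exact permutation, adjusted p = 0.094), Gem minus Rrad -0.54 (adjusted p = 0.20) and Rem2 minus Rrad 0.13 (adjusted p = 0.86). The first of these was above 0.1 (exact permutation, adjusted p = 0.10 to 0.18) without control 1 h replicate B, control 6 h replicate A or B, control 10 h replicate A or any library of KCl at 6 or 10 h, and Gem minus Rrad came below it without control 6 h replicate B (adjusted p = 0.094). Pairs with Rem1, which was not detected, test nothing about Rem1 and are not reported, but count in the adjustment above. Over the 6 tests of detected members alone, the adjusted p of both differences under BDNF was 0.0065 and that of Gem minus Rem2 under KCl was 0.126 (exact permutation), so the latter was not called.

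Over log2(group mean + 1) of the 9 groups, Gem and Rem2 had Pearson's r of 0.76, Rem2 and Rrad 0.55, and Gem and Rrad 0.39. The 9 points share libraries and size factors across genes. The genes most like Rrad were Klf5 (r = 0.98), which encodes a zinc finger transcription factor, Gm5402 (0.98) and Lmna (0.98), which encodes lamins A and C of the nuclear envelope. Lmna had a mean of 286 in controls, 1059 with BDNF at 1 h and 526 with KCl at 1 h. The genes most like Rem2 were Heca (0.99), Mlxip (0.98), which encodes a glucose-responsive transcription factor, and Slc7a11 (0.98), which encodes a cystine and glutamate exchanger. Heca had 523 in controls, 1156 with BDNF at 1 h and 1262 with KCl at 6 h. Slc7a11 had 1541, 1777 and 1814 in these groups, so a high r does not mean a change of like size. Those most like Gem were Gm12186, Gm4596 and Rpl31-ps11 (0.99, 0.98 and 0.98), predicted genes and a pseudogene whose reads may belong to near-identical copies, so this list is uncertain.

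Chromatin at the genes was described by the 14 ATAC peaks within a gene body or within 50 kb of a start, 2 at Gem and 4 at each of the others. Of these, 2 overlapped a member's promoter, defined as 1000 bp before to 100 bp after a start, and they belonged to Gem (chr4:11703988-11704906) and Rem2 (chr14:54475651-54476371). No listed peak overlapped the promoter of Rrad or Rem1. The nearest peaks were centred at -10.5 kb from the start of Rrad and at -11.1 kb from that of Rem1. A region outside the list has no value here, which is not a measure of closed chromatin. A further 7 of the 14 peaks were promoter peaks of other genes (Mrpl52, Lrp10, Prmt5, H13, 1700030C14Rik, Pdp2 and Ciao2b), and proximity does not tie a peak to a member.

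At 1 h, 1 of the 14 peaks was called under BDNF and 1 under KCl (edgeR with LOESS offsets), where 17.3% and 8.34% of all 56383 peaks tested were called. None of the 14 was called at 6 or 10 h under BDNF (10.6% and 9.36% of all peaks) or KCl (7.49% and 7.87%). Between the stimuli, 2 were called at 1 h (14.9% of all peaks) and none at 6 or 10 h (3.63% and 1.99%). With TMM scaling 2 of the 14 were called at each of 6 and 10 h of KCl, and with DESeq2 2 and 1. The shares of all peaks called under those settings are not given here, so these counts cannot be set against them.

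**Figure D3:**
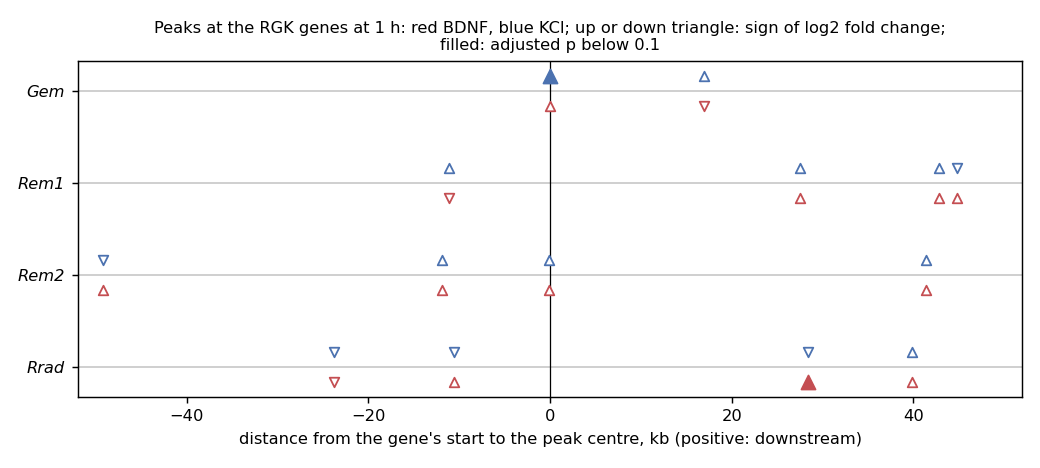
Each of the 14 peaks is placed by the distance of its centre from the start of its gene in kb, with the BDNF change at 1 h in red and the KCl change at 1 h in blue; triangles point up for a positive and down for a negative log2 fold change, and filled symbols had an adjusted p below 0.1. The Gem promoter is filled for KCl and a peak 28.4 kb downstream of the Rrad start is filled for BDNF.

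The Gem promoter peak, with counts scaled by the LOESS offsets, had 48.6 to 71.9 in the 6 controls, with a median of 58.8. With KCl at 1 h it had 120 and 107, above every other library. With BDNF at 1 h it had 67.6 and 63.1, within the controls. The KCl change was 0.91 ± 0.19 on the log2 scale (edgeR, adjusted p = 0.0012), and BDNF was lower than KCl by -0.79 ± 0.24 (edgeR, adjusted p = 0.021). The call against controls was kept under each alternative and without each library, while the difference between the stimuli was not called without either BDNF 1 h library (-0.83 and -0.73) or without KCl 1 h replicate A (-0.71). By 6 h of KCl the peak had 79.0 and 40.4, and at 10 h 69.8 and 91.8, so that these libraries spread widely and overlapped the controls. The 40.4 came from KCl 6 h replicate B, the ATAC library with the fewest reads (1.24 M). Gem RNA at 6 h of KCl (93.4 and 98.4) overlapped that at 1 h.

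The Rem2 promoter peak, around the sequence given above, had 50.5 to 85.4 in controls, with a median of 76.3. It had 67.7 and 87.3 with BDNF at 1 h, when Rem2 RNA was at its highest, and 64.4 and 59.2 with KCl at 6 h. All but 3 stimulated libraries (38.1 in BDNF 6 h A, 87.3 in BDNF 1 h B and 86.6 in KCl 1 h A) were within the controls' range. Its change at 1 h was 0.13 ± 0.21 with BDNF and 0.04 ± 0.21 with KCl (edgeR, adjusted p = 0.78 and 0.94). At a mean of 70.9 scaled counts per control library, changes of this size were not detectable.

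The Cdh16 intron peak (chr8:104602634-104603169) lies 28.4 kb downstream of the Rrad start, and its nearest protein-coding start is that of Pdp2. It had 89.8 to 116 in controls, with a median of 107. With BDNF at 1 h it had 150 and 129, above all controls, and 120 and 115 at 6 h. With KCl at 1 h it had 102 and 78.8, and at 10 h 130 and 95.6, so that 1 KCl library stood as high as the lower BDNF library. The BDNF change at 1 h was 0.41 ± 0.16 (edgeR, adjusted p = 0.079), and BDNF exceeded KCl by 0.63 ± 0.20 (edgeR, adjusted p = 0.024). The call against controls was close to the threshold. It was lost with TMM scaling, DESeq2, limma and controls of 1 h alone (adjusted p = 0.13 to 0.41), and without BDNF 1 h replicate A or B, control 6 h replicate A or B, or control 10 h replicate B. The difference from KCl was not called without BDNF 1 h replicate A (0.53) or KCl 1 h replicate B (0.44). With BDNF at 1 h against the 6 controls, Rrad RNA was 83.9-fold higher on the log2(value + 1) scale.

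**Figure D4:**
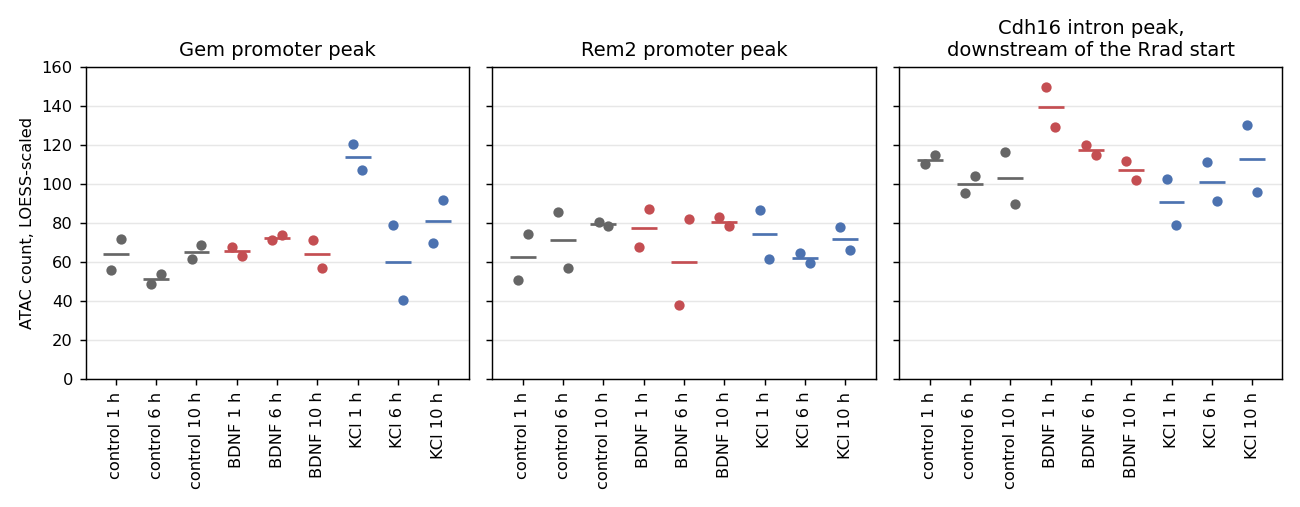
Points are ATAC libraries and lines group means, in counts scaled by the LOESS offsets, for the Gem and Rem2 promoter peaks and the Cdh16 intron peak near Rrad, over the 9 groups. KCl at 1 h stands out at the Gem promoter (120 and 107), BDNF at 1 h has the highest group mean at the Cdh16 intron (150 and 129), and the Rem2 promoter shows no group apart from the controls.

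The calcium channel beta subunits, the binding partners of RGK proteins, changed in mixed directions, and all 4 were tested. Cacnb1 rose by 0.86 ± 0.09 with BDNF at 1 h (limma, adjusted p = 9.58e-08) and by 0.63 with KCl at 6 h (adjusted p = 2.41e-06). Cacnb3 (2118 ± 194 in controls, SD, n = 6) fell by 0.92 ± 0.08 with BDNF at 6 h (limma, adjusted p = 1.86e-08) and by 0.61 at 10 h. Cacnb2 rose by 0.57 ± 0.10 with KCl at 10 h (adjusted p = 0.000104), after a value of -0.47 at 1 h that was also called. With BDNF, 1 of the 4 was called higher and 2 lower at 1 h, 2 lower at 6 h and 1 lower at 10 h. With KCl, 2 were called lower at 1 h, while 3 were called higher at 6 h and 2 higher at 10 h. Over all genes 19% to 22.1% were called in each direction with BDNF and 26.5% to 33.4% with KCl. The medians ran from -0.27 (BDNF 1 h) to 0.29 (KCl 6 h), beside medians within 0.01 of 0 over all genes.

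Of the pore-forming alpha1 subunits of high-voltage-activated channels, 5 of 7 were tested (Cacna1f and Cacna1s were too low). Cacna1d, which encodes the L-type channel CaV1.3, fell by 2.04 ± 0.13 with KCl at 6 h and by 1.35 at 10 h (limma, adjusted p = 6.24e-11 and 4.64e-08), from 586 ± 51.3 in controls. With BDNF its values were -0.10 to 0.03, not called, and BDNF exceeded KCl by 2.07 at 6 h (limma, adjusted p = 1.91e-09). Cacna1e, an R-type channel, fell by 0.76 ± 0.11 with KCl at 6 h (adjusted p = 5.49e-06), and Cacna1a, the P/Q-type channel, rose by 0.53 ± 0.11 with KCl at 1 h (adjusted p = 0.000568). With KCl at 6 h, 0 of the 5 were called higher and 3 lower, where 33.4% and 33.1% of all genes were called. With BDNF at 6 h 1 was called higher and 0 lower, where 22.1% and 21.1% of all genes were called.

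The 3 T-type alpha1 subunits, which need no beta subunit, were all tested. Cacna1g fell by 1.25 ± 0.09 with BDNF at 6 h and by 1.04 at 10 h (limma, adjusted p = 8.58e-10 and 2.36e-08). With KCl it had 0.42 at 1 h, -0.45 at 6 h and -0.61 at 10 h, all called. Cacna1i fell by 0.75 ± 0.10 with KCl at 6 h (limma, adjusted p = 1.87e-06). It also had -0.54 with KCl at 10 h, and -0.55 and -0.62 with BDNF at 1 and 10 h, all called. Cacna1h rose by 0.28 ± 0.12 with KCl at 1 h (limma, adjusted p = 0.060). Of the alpha2delta subunits, which help bring channels to the surface, 3 of 4 were tested. At 10 h of BDNF, Cacna2d2 fell by 0.92 ± 0.14 and Cacna2d3 rose by 0.73 ± 0.08 (limma, adjusted p = 5.12e-05 and 1.04e-06). Cacna2d1 rose by 0.27 ± 0.07 with KCl at 10 h (limma, adjusted p = 0.0027).

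**Figure D5:**
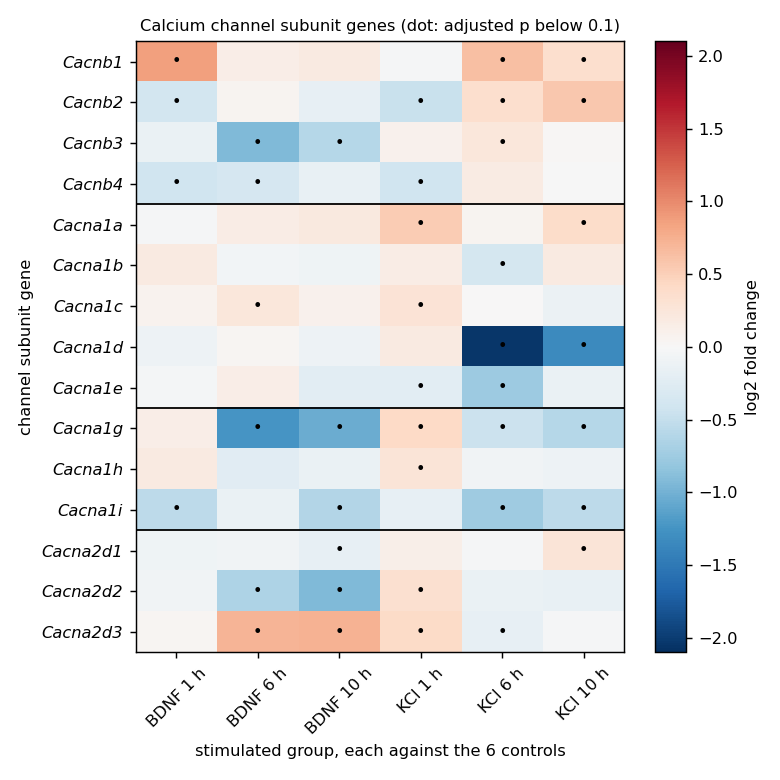
Colours give the log2 fold change of 15 calcium channel subunit genes (rows; beta, high-voltage-activated alpha1, T-type alpha1 and alpha2delta subunits from top to bottom) in the 6 stimulated groups (columns), each against the 6 controls; dots mark an adjusted p below 0.1. The darkest cell is Cacna1d with KCl at 6 h (-2.04), and Cacna1g is lowest with BDNF at 6 h (-1.25).

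Among 18 tested of 19 other reported partners and effectors of RGK proteins (among them calmodulins, CaM kinases, 14-3-3 proteins, ezrin and Kif9), 11 were called higher and 0 lower with BDNF at 1 h, with a median of 0.21, and 13 higher and 2 lower with KCl at 1 h, with a median of 0.24. Over all genes, BDNF at 1 h had 21.3% called higher and 19% lower, and KCl at 1 h had 26.5% and 28.2%. BDNF had 4 called higher and 5 lower at 6 h, and 5 higher and 4 lower at 10 h. Over all genes these shares were 22.1% and 21.1% at 6 h of BDNF and 21.1% and 19.5% at 10 h. KCl had 8 higher and 5 lower at 6 h, and 6 higher and 3 lower at 10 h. There the shares over all genes were 33.4% and 33.1% at 6 h and 29% and 28.2% at 10 h. Ezr, which links actin to the membrane and binds Gem, rose by 0.80 ± 0.15 with BDNF at 1 h (limma, adjusted p = 0.000631). Kif9, a kinesin reported to bind Gem, fell by 2.13 ± 0.22 with KCl at 10 h (limma, adjusted p = 7.52e-08).

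Since Rrad and Rem1 are best known from heart and muscle, markers of other cell types were read beside the members. The summed value of 6 muscle markers was 140 to 202 in controls, 140 to 186 with BDNF and 163 to 272 with KCl, with Actc1 at 0 to 2.40 and Ckm at 0 to 11.8, but Myh6 at 42.8 to 117, Myh7 at 31.9 to 68.4 and Ttn at 18.2 to 71.6 over the 18 libraries. That of 6 endothelial and mural markers was 423 to 1429 in controls, 388 to 739 with BDNF and 483 to 1155 with KCl, with Kdr at 212 to 1183, while Cldn5 had 0 to 6.53 and Pecam1 4.52 to 23.5. The highest BDNF library was below the highest control for both lists, and the highest KCl library was above it for the muscle list. Astrocyte markers had 10029 to 12921 in controls, 9757 to 12542 with BDNF and 7733 to 13948 with KCl. The part of any of these cell types in the members' values was not tested.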

How the data were processed

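Samples were grouped by their labels. RNA reads were aligned by the authors to mm10 with TopHat2 and GENCODE M16, and what was deposited for RNA is a signal per gene: read counts over a DESeq2 size factor of each library. All values (100% in each column) were whole multiples of a step within 0.01, so whole reads were recovered. For the counting, program and strand setting are not given in the sources used here. ATAC reads were aligned by the authors with bowtie2, peaks called with MACS2 and reads counted with DiffBind, and the deposited ATAC values are whole-number counts per peak. The authors' tables of comparisons hold log2 fold changes and p-values, which were not used; gene names came from them for 24184 genes and otherwise, like the annotation of peaks, from GENCODE M21.

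RNA was tested with limma 3.58.1 on log2(value + 1) in a model of 7 levels (each stimulated group, and the 6 controls as 1), with trend and robust moderation, two-sided, over 16209 genes with a mean of at least 10. Controls of different times were compared in a model of 9 levels. ATAC counts were tested with edgeR 4.0.16 (quasi-likelihood, LOESS offsets) over 56383 of 58177 peaks. For edgeR, the SE was taken as the log2 change over the root of its F value. Adjustment was by Benjamini-Hochberg, and calls were made below 0.1. DESeq2 1.42.0, other scalings, pseudocounts, filters and the leaving out of libraries were alternatives. The limma and edgeR fits were tried on simulated counts with far fewer changed features than were called here and a fixed spread for each assay. That trial does not measure their error in these data, and the permutation test was not part of it.

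The members and lists were chosen with earlier results of these data known. Genes named beside the members were those with the largest called change of each list, at most 3 a list (1 of them is not reported here), and the 3 genes with the highest correlation to each member over the 9 groups. Further values of these genes were chosen after their values were seen. Replicates differed by more than sampling noise (chi-square per degree of freedom 2.02 to 27.7 for RNA and 1.99 to 2.55 for ATAC). The highest RNA value belonged to KCl 6 h, and the next, 7.83, to controls of 1 h. The study calls them biological replicates; p-values measure the spread between these samples. Letters A and B name RNA columns, and for ATAC the order of the columns. Over 36 pairs of groups, deviations of same-lettered RNA libraries correlated at -0.31 to 0.42. Every pair with controls of 10 h was negative and most other pairs were positive. Whether libraries were paired is therefore not settled by the letters, and the tests took them as unpaired.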

Additional observations from a re-analysis of the deposited data

Results flagged for a closer look

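The response to a stimulus differed between times for Rem2 and Rrad, as tested by the difference between times in the same limma model, and the controls, shared by all times, do not enter that difference. Rem2 was lower at 6 h than at 1 h of BDNF by -3.08 on the log2 scale (adjusted p = 9.47e-08), with libraries at 83.8 and 83.3 against 738 and 694. Rrad was lower at 6 h than at 1 h of BDNF by -3.40 (limma, adjusted p = 8.32e-06), with 43.2 and 34.8 against 411 and 428. Rem2 was higher at 6 h than at 1 h of KCl by 0.99 (limma, adjusted p = 0.0032), with 578 and 656 against 377 and 253. It was lower at 10 h than at 6 h of KCl by -0.79 (limma, adjusted p = 0.045), at 317 and 402 against 578 and 656, a call that was lost without KCl 6 h replicate B or KCl 10 h replicate A. No group of 6 control libraries held a library far from the others for any of the 3 detected members or the 14 peaks (17 tests, of which chance alone flags about 1 in 20).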

How the results depend on the processing

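Alternatives other than leaving out a library gave 548 values that kept their direction and their side of the threshold and 5 that reversed. The calls of Gem, Rem2 and Rrad against controls kept theirs under every such alternative, but DESeq2 called Rem2 at 6 h of BDNF (-0.44). edgeR on whole reads and DESeq2 called 6430 to 10779 and 5759 to 10207 of all genes against controls, and limma 6546 to 10779. From 6 to 10 h of BDNF, a pseudocount of 5 and edgeR called 1 member (Rrad), and from 1 to 6 h of KCl both called 2. Of peaks at 1 h of BDNF, TMM, DESeq2, limma and controls of the same time called 0. TMM called 2 at 1, 6 and 10 h of KCl and 1 between the stimuli at 6 h, and DESeq2 2 at 6 h and 1 at 10 h of KCl. The shares of all peaks called under these alternatives are not given here. For other windows, 6 peaks lay within 20 kb and 32 within 100 kb of the starts. Reversals were of values near 0 that were not called. The Gem promoter peak had -0.043 at 10 h of BDNF with controls of the same time and -0.074 at 6 h of KCl with limma. The Rem2 promoter peak at 10 h of KCl had -0.017 with TMM, -0.060 with DESeq2 and -0.14 with controls of the same time. The difference Gem minus Rem2 under KCl (-0.67) was not called when adjusted over the pairs of detected members, a choice made after seeing the data. The cause of these changes was not tested, but for the last. There the pairs with Rem1, most of which had a smaller p, no longer counted in the adjustment. With the column letter as a replicate block no call of a member changed (Rem2 at 1 h of BDNF 2.72, adjusted p = 1.97e-08 by limma), and ATAC columns carry no letter.

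Leaving out 1 library at a time gave 1504 values on the same side, and a group left with 1 library was assumed to vary like the others. Of the rest, 32 reversed, 27 lost a call, 3 gained one and 18 were counts that moved. Ranges of log2 changes that lost, gained or turned a call were as follows. Gem with BDNF had 0.55 to 0.76 at 1 h, 0.52 to 0.72 at 6 h and -0.19 to 0.19 at 10 h. Rem2 with BDNF had -0.46 to -0.28 at 6 h and -0.83 to -0.65 at 10 h, and Rrad 1.00 to 1.82 at 10 h. Between the stimuli, Gem had -0.90 to -0.46 at 1 h, and Rrad 1.17 to 1.53 at 6 h and -0.31 to 0.50 at 10 h. From 1 to 6 h Gem had -0.14 to 0.070 with BDNF and -0.15 to 0.29 with KCl. Controls of 6 h against 1 h had -0.10 to 0.19 for Gem, -0.56 to 0.12 for Rem2 and -0.055 to 1.44 for Rrad, and those of 10 h had -0.17 to 0.57 for Gem and -0.44 to 0.23 for Rem2. The number of members called ran from 1 to 3 at 6 h of BDNF, 0 to 2 at 10 h of BDNF, 1 to 2 from 1 to 6 h of KCl, and 0 to 1 from 6 to 10 h of KCl. The number of peaks called ran from 0 to 1 at 1 h of BDNF, 1 to 2 at 1 h and 0 to 1 at 6 h of KCl, and 0 to 3 and 0 to 1 between the stimuli at 1 and 6 h. Those that moved by more than 1.5 times and are not named above were 2 at 1 h of KCl without control 1 h replicate B, 1 at 6 h of KCl without control 1 h replicate A or B or KCl 6 h replicate B, and 1 between the stimuli at 6 h without KCl 6 h replicate B. The Rem2 promoter peak had -0.062 to 0.30 at 1 h and -0.89 to 0.21 at 6 h of BDNF, and -0.20 to 0.29 at 1 h and -0.11 to 0.13 at 10 h of KCl. The Gem promoter peak had -0.075 to 0.24 at 10 h of BDNF and -0.57 to 0.39 at 6 h of KCl. Between members, Gem minus Rem2 had -0.35 to 0.29 under BDNF and -0.79 to -0.51 under KCl, and under KCl Gem minus Rrad had -0.66 to -0.28 and Rem2 minus Rrad -0.10 to 0.42. There were 2 libraries a group, and the fold changes of Rrad rest on 35 reads over 6 controls.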

Other observations

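Among other small GTPases of the Ras family, of which 27 of 31 were tested, the largest change was a rise of Rasl11a with BDNF. Rasl11a, a nucleolar Ras-like protein, had 22.8 ± 5.25 (SD, n = 6) normalised values in controls and rose by 2.83, 3.55 and 3.09 with BDNF at 1, 6 and 10 h (limma, adjusted p = 2.12e-09, 1.07e-10 and 1.58e-09), and by 0.66, 0.89 and 0.46 with KCl (adjusted p = 0.020, 0.0019 and 0.098). Rasl11b rose by 1.79 ± 0.12 with BDNF at 1 h (limma, adjusted p = 8.18e-11) and fell by 0.61 with KCl at 1 h (adjusted p = 0.000212). Rasl10a, low in controls (6.11 normalised values), rose by 2.22 ± 0.32 with KCl at 1 h and by 1.35 with BDNF (limma, adjusted p = 5.71e-06 and 0.0021). Its control mean is below the minimum mean of 10, so it too passed the filter through its stimulated libraries. Called higher and lower were 10 and 5 of the 27 with BDNF at 1 h and 7 and 11 with KCl at 1 h, with medians of 0.02 and -0.00. Against these, BDNF at 1 h had 21.3% of all genes called higher and 19% lower, and KCl at 1 h had 26.5% and 28.2%.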
